A study of Mus musculus with 8 samples.

Results

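The regions described here are RXR chromatin immunoprecipitation (ChIP-seq) peaks around 7 genes of thyroid and steroid hormone signalling in the newborn mouse heart: Thra, Thrb, Hr, Dio2, Vdr, Nr3c1 and Nr3c2. They were taken by position, as the peaks of 4 deposited peak lists whose summit lay inside 1 of these genes or within 50 kb of either end (RefSeq, mm10). This gave 54 peaks of 23961 in all, with 0 and 0 in edKO replicates 3 and 4, against 42 and 12 in WT replicates 3 and 4. The edKO hearts came from newborns with a cardiomyocyte-specific deletion of both RXR alpha and RXR beta (RXRab-/-), and the WT hearts from wild-type newborns. Each genotype had 2 hearts at P0, the day of birth, each counted as its own biological replicate, and chromatin of every heart was sequenced after RXR pull-down and as input. The tissue was the whole heart, so cells other than cardiomyocytes, which the deletion did not target, were part of each edKO sample, and RXR bound in fewer cells cannot be told apart from less RXR bound per cell. The sources used here do not name the line or promoter that drove the deletion.

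Retinoid X receptors (RXR) bind DNA in pairs with other nuclear receptors. Thyroid hormone receptors, encoded by Thra and Thrb, and the vitamin D receptor, encoded by Vdr, work mainly as partners of RXR on repeats of a short half-site. The glucocorticoid receptor (Nr3c1) and the mineralocorticoid receptor (Nr3c2) instead bind as pairs without RXR. Hr encodes the hairless corepressor, which is induced by thyroid hormone and binds thyroid hormone and vitamin D receptors, and Dio2 encodes the deiodinase that makes the active hormone T3 from T4 inside cells. In the heart around birth, thyroid hormone and glucocorticoids are known to drive the change from fetal to adult contractile and metabolic genes.

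No genome of build mm10 was used, so sequence is shown where RefSeq promoter windows (250 bases before to 50 bases after a listed transcription start, GRCm38.p6) lay at or near these peaks. Of the 7 genes, Thrb, Dio2, Vdr and Nr3c2 had such a window. A member gene's own window was not overlapped by a peak in these 4 genes, so the first pair below belongs to neighbours whose windows were overlapped, a choice made after the values were seen. Nr1d1, the gene beside Thra, is shown because its window lay under peaks of both WT hearts, and capitals mark the 285 bases covered in both (chr11:98775328-98775627, minus strand). Gm32269, a long non-coding RNA gene beside Thrb, is shown because its window (chr14:17632602-17632901, minus strand) touched the region with the highest mean fold of the set, and capitals mark the 42 bases under the peak of WT replicate 3.
Nr1d1: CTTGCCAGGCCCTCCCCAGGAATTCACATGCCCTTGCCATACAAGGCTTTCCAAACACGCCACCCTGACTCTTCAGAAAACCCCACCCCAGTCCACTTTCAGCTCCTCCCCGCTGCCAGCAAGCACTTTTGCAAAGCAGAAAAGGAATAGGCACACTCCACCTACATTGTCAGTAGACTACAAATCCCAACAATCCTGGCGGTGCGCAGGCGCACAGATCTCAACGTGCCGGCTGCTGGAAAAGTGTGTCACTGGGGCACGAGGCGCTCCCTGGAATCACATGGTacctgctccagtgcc
Gm32269: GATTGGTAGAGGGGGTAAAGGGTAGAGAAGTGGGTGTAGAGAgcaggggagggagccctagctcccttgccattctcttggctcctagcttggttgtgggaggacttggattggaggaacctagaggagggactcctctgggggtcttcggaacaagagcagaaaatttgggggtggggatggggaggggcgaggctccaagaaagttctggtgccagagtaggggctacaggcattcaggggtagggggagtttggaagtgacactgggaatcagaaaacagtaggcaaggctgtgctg

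The windows of Thrb (chr14:17660710-17661009, plus strand, the first of its 2 listed starts) and Nr3c2 (chr8:76902080-76902379, plus strand) are shown for comparison, because they carry half-sites but had no peak over them. Capitals mark the receptor half-sites found on either strand. The search covered AGGTCA, the common half-site of RXR and its partners, and also 3 close variants of it. The first variant was GGGTCA, the next was AGTTCA, and the last was GGTTCA.
Thrb: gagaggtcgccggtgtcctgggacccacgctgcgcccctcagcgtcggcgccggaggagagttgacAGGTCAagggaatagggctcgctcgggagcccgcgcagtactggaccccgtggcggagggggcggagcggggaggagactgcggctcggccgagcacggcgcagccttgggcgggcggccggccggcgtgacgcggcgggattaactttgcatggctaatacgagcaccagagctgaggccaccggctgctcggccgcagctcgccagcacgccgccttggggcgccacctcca
Nr3c2: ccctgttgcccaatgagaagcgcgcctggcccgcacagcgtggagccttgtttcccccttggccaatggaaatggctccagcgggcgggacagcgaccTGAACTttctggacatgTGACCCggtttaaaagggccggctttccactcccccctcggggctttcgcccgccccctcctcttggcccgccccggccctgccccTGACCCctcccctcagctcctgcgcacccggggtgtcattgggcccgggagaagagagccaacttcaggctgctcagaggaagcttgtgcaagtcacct
The Thrb window holds AGGTCA 184 bases upstream of the listed start. The Nr3c2 window holds AGTTCA 152 bases upstream and GGGTCA 135 and 49 bases upstream, all on the strand opposite to the one printed. The windows of Nr1d1 and Gm32269 hold none of the 4 half-sites. Among member windows not printed, those of Vdr and the second Thrb start hold AGTTCA, 91 and 160 bases upstream. That of Dio2 holds no half-site. Of 32817 promoter windows in the table, 43.7% hold at least 1 of the 4 half-sites, so the matches and the lack of them are common. A direct repeat of these half-sites 1 to 5 bases apart was found in 0.701% of all windows and in none of the 4 printed here.

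The first comparison asks how far the RXR signal at these genes depends on RXR alpha and beta in cardiomyocytes. No peak was called within 50 kb of any of the 7 genes in either edKO heart, while 6 of the 7 genes had at least 1 peak in WT hearts. The number of peaks was 0 and 0 in edKO replicates 3 and 4, against 42 and 12 in WT replicates 3 and 4. The groups did not overlap. The means were 0 ± 0 peaks in edKO hearts and 27.0 ± 21.2 in WT hearts (SD, n = 2 each), and the two-sided exact permutation test gave p = 0.333, the smallest p that 2 hearts against 2 allow. In the whole lists, which hold 8 and 127 peaks in edKO replicates 3 and 4 against 19129 and 4697 in WT replicates 3 and 4, the lack of an edKO peak is the rule. A peak in edKO replicate 3 was found at 0.119% of all 21887 protein-coding genes at this distance, and a peak in edKO replicate 4 at 1.52%, so 0 of 7 genes is near that background. At 10 kb the edKO count was again 0 of 7 genes, beside 0.0548% and 0.69% of all genes in edKO replicates 3 and 4. None of the 42 member peaks of WT replicate 3 was overlapped by a peak of edKO replicate 4, beside 0.659% of its whole list. The nearest edKO peak to any of the 7 genes, in edKO replicate 4, lay 0.198 Mb from Thrb, and the next nearest 1.26 Mb from Nr3c2.

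**Figure D1:**
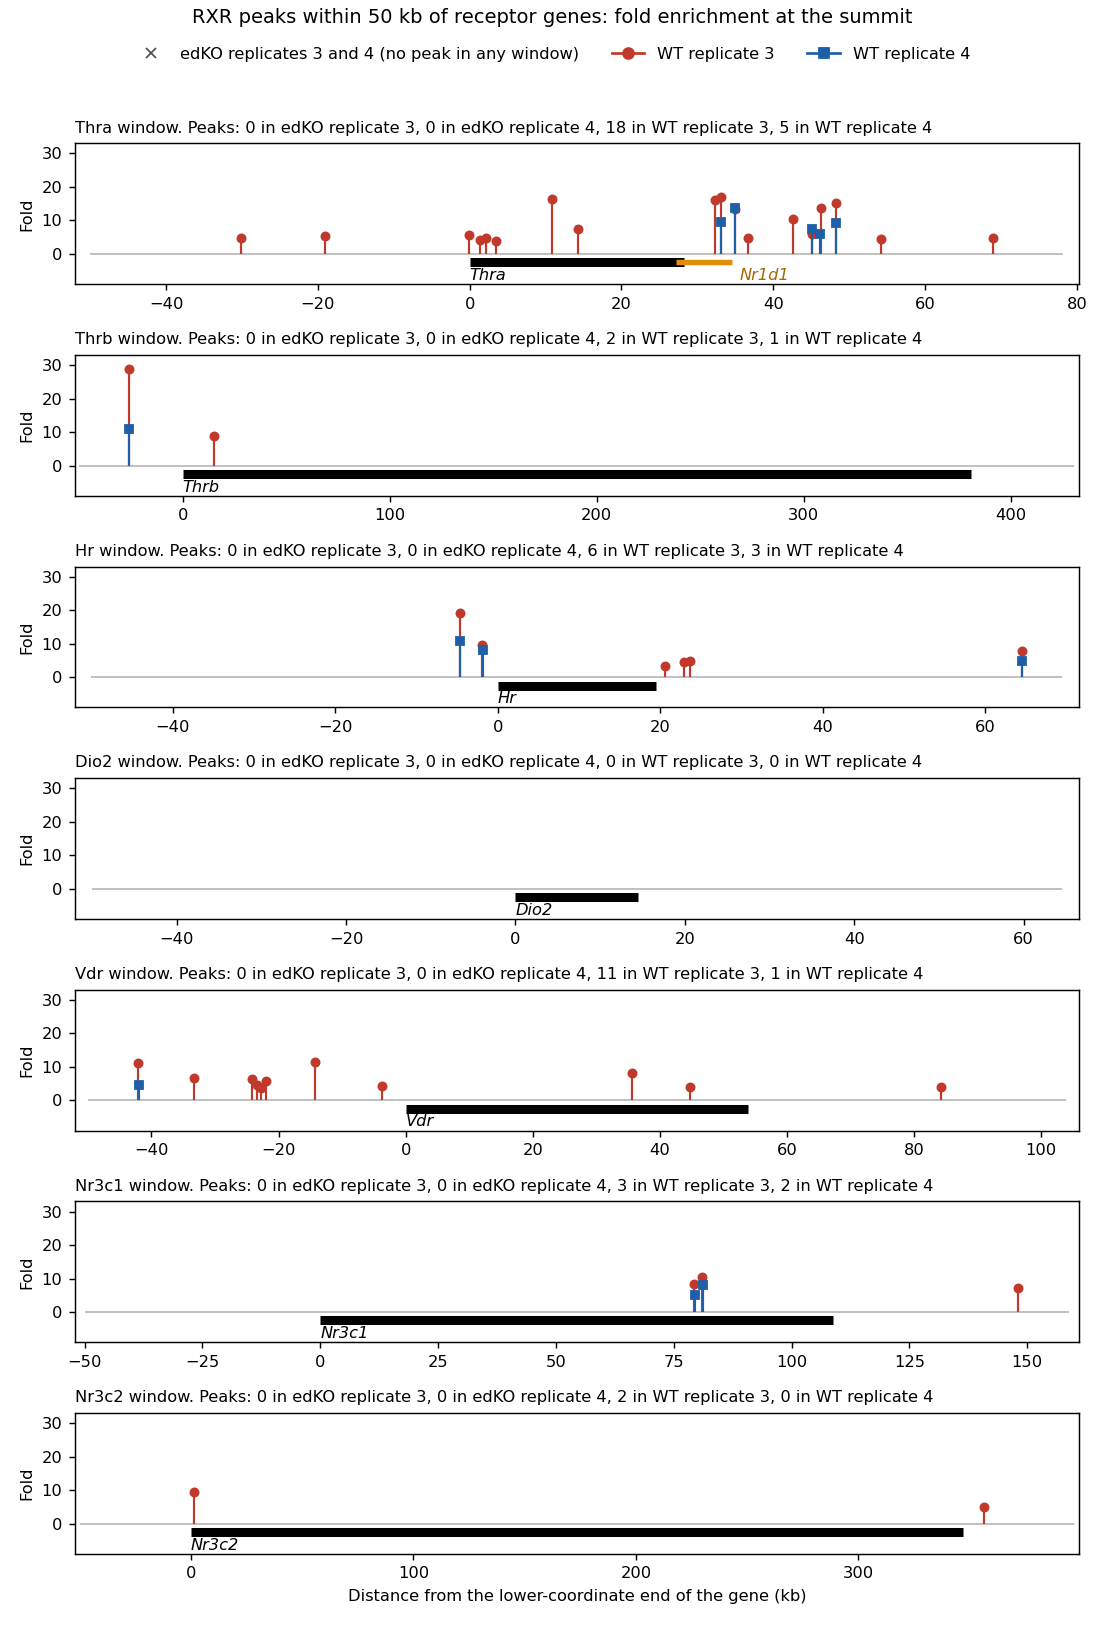
Fold enrichment at the summit of each RXR peak (linear axis) against its distance in kb from the lower-coordinate end of each of the 7 genes, with black bars for the genes and an orange bar for Nr1d1. The edKO hearts had no peak in any window. WT replicate 3 (circles) had 42 peaks and WT replicate 4 (squares) 12, most of them beside Thra, Vdr and Hr.

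Regions shared by the WT hearts, with peaks that overlapped by at least 1 bp, numbered 12 of 4342 in the series: 5 around Thra, 3 around Hr, 2 in Nr3c1, and 1 each near Thrb and Vdr. Nr3c2 had peaks in WT replicate 3 alone, and Dio2 had no peak in any of the 4 lists. Thus 5 of the 7 genes had a shared region within 50 kb, where the background is 32.4% of all protein-coding genes, 6 of 7 had a peak in WT replicate 3, where it is 64.5%, and 5 of 7 had one in WT replicate 4, where it is 33.5%. Within 10 kb, 3 of the 7, namely Thra, Hr and Nr3c1, had a shared region, beside 17.5% of all genes. Neither edKO replicate 3 nor edKO replicate 4 had a peak in any of the 12 regions, beside 0.184% and 2.88% of all 4342 shared regions. Read the other way, 97% of all shared WT regions had no peak in either edKO heart.

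Strong WT regions had an edKO replicate 4 peak more often than weak ones, so the 12 regions are best set against regions of like strength. Strength here is the authors' fold enrichment, the ratio of fragments at the summit to the local background, averaged over the WT hearts. Among regions with a mean fold of 6 to 9, where 5 of the 12 fell, 0 of 1671 had an edKO replicate 4 peak, which allows a share of up to 0.221% (upper bound of the 95% Clopper-Pearson interval). For 12 to 15, with 3 of the 12, the share was 1.67% (6 of 360, interval 0.614 to 3.59%). The strongest region, near Thrb, fell in the class of 18 to 24, where 20.4% had such a peak (32 of 157, interval 14.4 to 27.5%). Regions of a mean fold of 24 or more had one in 61.9% (73 of 118), and no region near the 7 genes was that strong. The classes of 9 to 12 (2 of the 12) and 15 to 18 (1 of the 12) had shares of 0.387% (3 of 775) and 5.12% (11 of 215). Counted from each gene's strongest region upwards, the share of regions with an edKO replicate 4 peak was 45.9% for Thrb and 23.9% for Hr. It was 18.8% for Thra, 8.12% for Nr3c1 and 5.87% for Vdr. These counts take in all stronger regions and exceed the shares at like strength. The strongest region of Nr3c1 fell in the class of 9 to 12, and that of Vdr in the class of 6 to 9.

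**Figure D2:**
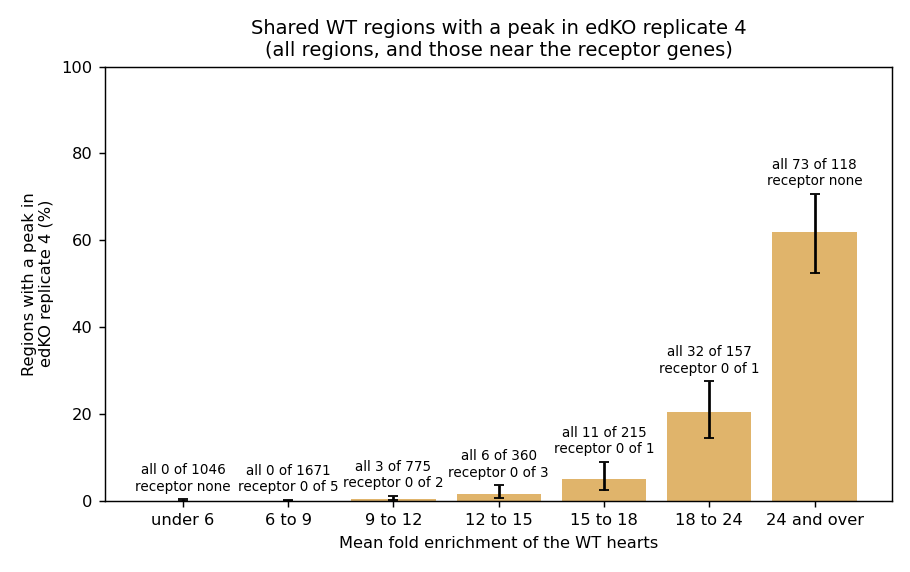
Share (%) of the 4342 regions shared by the WT hearts that had a peak in edKO replicate 4, in classes of mean WT fold enrichment, with 95% Clopper-Pearson intervals and with counts above the bars for all regions and for the 12 regions near the receptor genes. The share is 0% under a mean fold of 9 and 61.9% at 24 or more, and the 12 regions lie in the classes from 6 to 24 with no edKO replicate 4 peak.

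The folds at which peaks were called elsewhere in the genome of the edKO hearts can be set beside those of these WT regions. The lowest background that could be recovered from the peak statistics was 3.11 and 2.96 fragments per position in edKO replicates 3 and 4, against 2.48 and 2.32 in WT replicates 3 and 4. At that background, peaks had been called from a fold of 6.04 in edKO replicate 3, on 2 peaks, and of 4.80 in edKO replicate 4, on 72 peaks. Both WT hearts exceeded a fold of 6.04 at 7 of the 12 regions and of 4.80 at 11 of them, the exception being Vdr. At the lowest edKO backgrounds, a fold of 10.9, as at Thrb in WT replicate 4, equals a scaled pileup of 43.7 and 42.1 fragments in edKO replicates 3 and 4. Whether a region in an edKO heart would keep its WT fold was not tested. A missing peak is a value under the authors' threshold and not a measured level of 0.

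Thra and Thrb, the thyroid hormone receptor genes, differed in how RXR peaks lay around them. The Thra window of 128 kb on chromosome 11 held 18 peaks in WT replicate 3 and 5 in WT replicate 4. With 14.0 WT replicate 3 peaks per 100 kb it lay above 99.96% of all protein-coding genes, whose median was 0.904. With 3.90 shared regions per 100 kb it lay above 99.4%. Thrb, a gene of 381 kb on chromosome 14, had 2 peaks in WT replicate 3 and 1 in WT replicate 4, or 0.416 WT replicate 3 peaks per 100 kb, below the median of all genes. Its shared-region density of 0.208 per 100 kb lay above 67.9% of genes, whose median was 0. Only 32.4% of all genes had any shared region, so Thrb ranked near the bottom of those with one.

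The peaks around Thra lay mostly beside its neighbours. Nr1d1, which encodes the circadian repressor REV-ERB alpha and is transcribed from the opposite strand, overlaps the end of Thra by 1075 bp. All 5 shared regions of the window lay above the upper end of Thra, at 4.91 to 20.0 kb from it, 2 of them nearest to Nr1d1 and 3 nearest to Msl1, which encodes a subunit of a histone acetyltransferase complex. They spanned 15.1 kb. The strongest by mean fold, chr11:98775243-98776123, overlapped the promoter printed above. Its summits lay upstream of the printed bases, 349 and 317 bp outside Nr1d1 in WT replicates 3 and 4. No peak was called there in edKO replicate 3 or 4, and the folds were 13.5 and 13.7 in WT replicates 3 and 4. The WT hearts had nearly the same value here, from 50 and 46 fragments at the summit (95% Poisson intervals 37.1 to 65.9 and 33.7 to 61.4).

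Inside Nr1d1, 4.91 kb above Thra, the region chr11:98772969-98774455 had folds of 16.9 and 9.63 in WT replicates 3 and 4. The peak of WT replicate 4 was 1446 bp wide and covered 2 peaks of WT replicate 3, the second with a fold of 16.1. Farther up, the 3 regions nearest to Msl1 had folds of 5.96, 13.8 and 15.2 in WT replicate 3, against 7.59, 5.84 and 9.27 in WT replicate 4. The first of these, like the Nr1d1 promoter region, was higher in WT replicate 4, as were 17.3% of all shared regions.

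Thra itself had peaks in WT replicate 3 alone. Of the 18 peaks of its window, 6 were nearest to Thra, with folds from 3.91 to 16.4, and WT replicate 4 had no peak over any of them. The weakest 4 lay within 3.42 kb of the lower end of the gene, the one closest to that end being 98 bp outside it with a fold of 5.57. The strongest peak lay 10.8 kb inside the gene (chr11:98751379-98751882), with a fold of 16.4 and 56 fragments at the summit. Of the 806 peaks of WT replicate 3 with at least this fold, 4.59% had no overlapping peak in WT replicate 4, so a peak this strong was rarely missing there. Another peak of WT replicate 3 alone, nearest to Nr1d1 (chr11:98783043-98783691), had a fold of 10.4, and 19.4% of peaks that strong had no WT replicate 4 peak.

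The region near Thrb had the highest mean fold of the 12, through WT replicate 3. In WT replicate 4 the Nr1d1 promoter region was higher, at 13.7, and the first Hr region had the same value as Thrb. It lay 26.1 kb below the lower end of the gene (chr14:17632860-17633393), which is 27.9 kb from the nearest listed start, and its summit was 443 bp upstream of the listed start of Gm32269. It had no peak in edKO replicate 3 or 4, and its fold was 28.7 in WT replicate 3 against 10.9 in WT replicate 4. It ranked 205 of the 4342 shared regions by mean fold. The counting intervals of the WT hearts did not overlap here, with 99 fragments in WT replicate 3 (interval 80.5 to 121) and 44 in WT replicate 4 (interval 32.0 to 59.1). Inside Thrb, WT replicate 3 alone had a peak, 15.3 kb from the lower end, with a fold of 8.90. In the remaining length of this long gene, 366 kb, no peak was called in any heart.

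**Figure D3:**
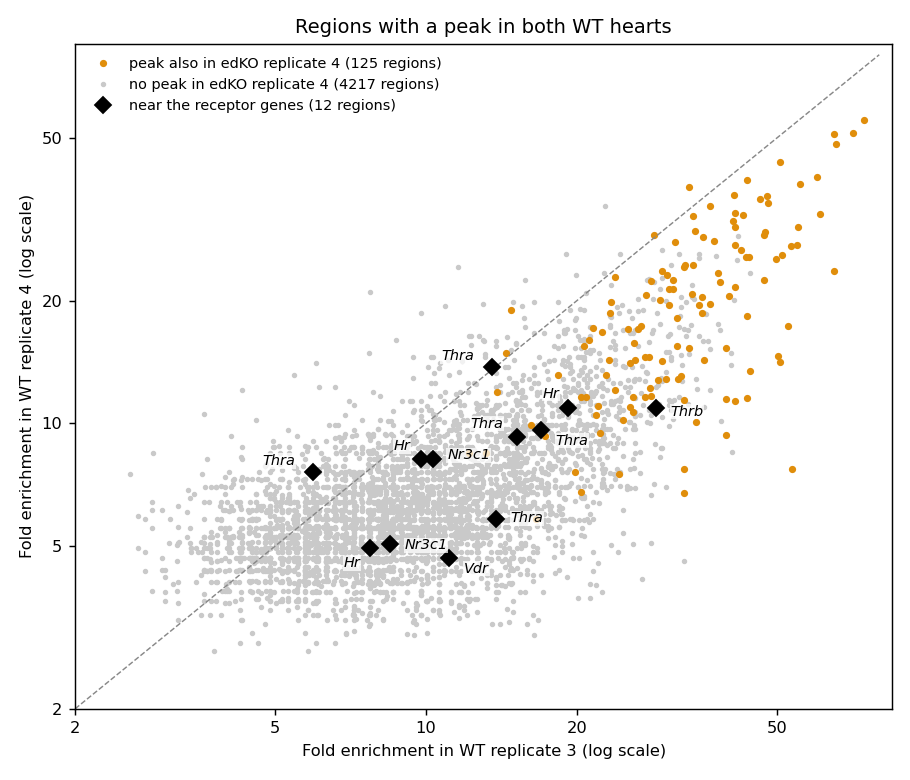
Fold enrichment in WT replicate 4 against WT replicate 3 (both log axes) for the 4342 regions shared by the WT hearts, orange where edKO replicate 4 also had a peak, with the 12 regions near the receptor genes as labelled black diamonds and a dashed line of equal values. The Thrb region, at 28.7 and 10.9, is the highest of the 12 in WT replicate 3 but not in WT replicate 4, and 2 Thra regions lie above the line.

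Hr, the thyroid hormone-induced corepressor gene on chromosome 14, had no peak in edKO replicate 3 or 4, and 6 and 3 peaks in WT replicates 3 and 4. The strongest shared region lay 4.58 kb below the gene and 537 bp from the neighbouring gene Reep4 (chr14:70549250-70549676), with folds of 19.2 and 10.9 in WT replicates 3 and 4. Closer to Hr, at 1.87 kb, a second region (chr14:70552074-70552361) had folds of 9.76 and 8.17 in WT replicates 3 and 4. Both lay on the same side of the gene, 2.72 kb apart. The last lay 45.1 kb above Hr inside Dmtn, with folds of 7.75 and 4.97 in WT replicates 3 and 4. The other 3 peaks of WT replicate 3, at 1.13 to 4.15 kb above the gene, had folds from 3.38 to 4.88.

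Dio2, the deiodinase gene on chromosome 12, had no peak within 50 kb in edKO replicate 3, edKO replicate 4, WT replicate 3 or WT replicate 4. Since 35.5% of all protein-coding genes had no WT replicate 3 peak at this distance either, this is a common state. Vdr, on chromosome 15, had 11 peaks in WT replicate 3 and 1 in WT replicate 4. Its density of 7.15 WT replicate 3 peaks per 100 kb lay above 97.2% of genes. Its shared-region density of 0.650 per 100 kb lay above 72.9%, mostly genes with no shared region, as 32.4% of all genes had one. Of those 11 peaks, 7 lay inside the neighbour Hdac7, which encodes a histone deacetylase, and 3 were nearest to Vdr. The shared region (chr15:97812006-97812829) was 42.1 kb from Vdr and inside Hdac7, with folds of 11.1 and 4.67 in WT replicates 3 and 4. Among WT replicate 3 peaks not found in WT replicate 4, the strongest of the Vdr window lay in Hdac7 too, with a fold of 11.4, and 15.1% of WT replicate 3 peaks that strong had no WT replicate 4 peak. The summits of the shared region were 175 bp apart, the widest gap among the 12 regions, whose median of 37.5 bp was close to the 36.0 bp of all shared regions. Within Vdr, WT replicate 3 alone had peaks, with folds of 8.04 and 4.02 at 18.2 and 9.14 kb from the listed start.

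Among the steroid receptor genes, Nr3c1 had 3 and 2 peaks in WT replicates 3 and 4, and Nr3c2 had 2 and 0. Nr3c1, on chromosome 18, was the member with shared regions inside the gene itself. These were chr18:39489767-39490368, with folds of 8.48 and 5.07 in WT replicates 3 and 4, and chr18:39490936-39491854, with 10.3 and 8.17. They lay 29.5 and 27.8 kb from the upper end of the gene. Another peak, in WT replicate 3 alone, lay 39.2 kb above the gene with a fold of 7.18. Nr3c2, on chromosome 8, had 2 peaks, both in WT replicate 3 alone. One lay inside the gene, 1.23 kb from its lower end and 3.02 kb from the listed start whose window is printed above, with a fold of 9.47. The other had a fold of 4.88 and lay 9.69 kb above Nr3c2, inside Arhgap10.

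Across the set, WT replicate 3 gave the higher fold at 10 of 12 shared regions, and the median ratio of WT replicate 4 to WT replicate 3 was 0.604, against 0.673 over all shared regions. The mean fold of the 12 regions ran from 6.36 to 19.8 with a median of 9.53, beside 7.81 for all 4342. Each of the 12 WT replicate 4 peaks met one in WT replicate 3, where the background is 94.4%, and 13 of the 42 WT replicate 3 peaks met one in WT replicate 4, or 31.0%, beside 22.9% of its whole list. The shared peaks of WT replicate 3 had a median fold of 13.5 and the remaining 29 a median of 4.88. Over its whole list these medians were 9.47 and 5.17, so shared peaks were stronger there too. Near the 50 kb limit, the farthest peaks counted were those in Dmtn at 45.1 and 45.0 kb, with folds of 7.75 and 4.97 in WT replicates 3 and 4. The nearest ones not counted lay 50.4, 56.2 and 57.2 kb from Nr3c1 in WT replicate 3, with folds of 5.57, 5.45 and 6.32.

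**Figure D4:**
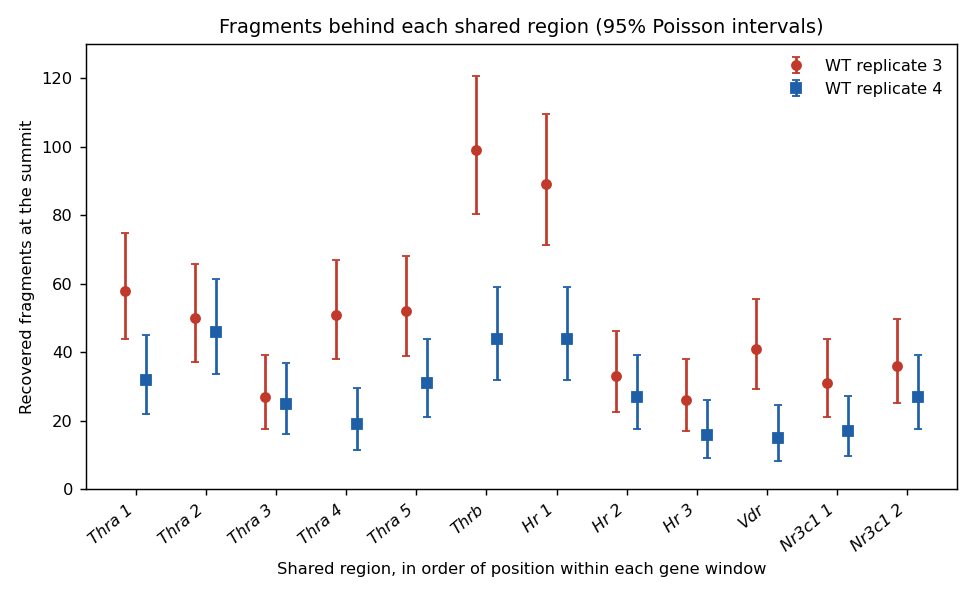
Fragments at the summit of the 12 shared regions in WT replicate 3 (circles) and WT replicate 4 (squares), recovered from the peak statistics, with 95% Poisson intervals that cover counting error only; regions are numbered by position within a gene window. The intervals of the hearts are apart at 4 of 12 regions, namely Thrb (99 and 44 fragments), the first Hr region (89 and 44), the fourth Thra region (51 and 19) and Vdr (41 and 15), and nearly coincide at the second Thra region (50 and 46). Counts are before scaling, and WT replicate 4 had lower folds in general (median ratio 0.673 over all shared regions).

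The receptors were then set beside the genes of their pathways, from 6 lists. Among 22 genes of thyroid hormone transport, deiodination and receptors, 9 had a shared WT region within 50 kb, beside 32.4% of all genes. The 4 strongest were Rxrb (fold 35.0 and 19.5 in WT replicates 3 and 4, in a region 81 bp outside it and nearest to Slc39a7), Thrb, Thra and Gps2, which encodes a subunit of a corepressor complex and whose region, 31.5 kb away, was nearest to Slc2a4 (24.4 and 12.6). Rxrb was also the gene of this list with an edKO peak, with a fold of 5.63 in edKO replicate 4. The deiodinase gene Dio1 had a weak region 37.8 kb away and nearest to Hspb11 (5.04 and 5.03), and Dio3 had none.

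Thyroid hormone target genes had shared regions in 13 of 16 cases, again beside 32.4% of all genes. They were led by Myh6 and Myh7, the cardiac myosin heavy chain genes, which shared 1 region (70.8 and 51.3 in WT replicates 3 and 4), by Klf9 (65.7 and 48.4), and by Cpt1a, a gene of fatty acid oxidation (43.7 and 39.4). Hr, at 19.2 and 10.9, is a member of this list too. In the edKO hearts, 1 of the 16 genes had a peak within 50 kb in edKO replicate 3 and 6 had one in edKO replicate 4, beside 0.119% and 1.52% of all protein-coding genes. Myh6 and Myh7 were counted on the same edKO replicate 4 peak. The edKO folds were 6.55 at Klf9 in edKO replicate 3, and 13.1 at Klf9 and 18.7 at Myh6 in edKO replicate 4. The pacemaker channel gene Hcn4, the potassium channel gene Kcnd2 and Fgf21 had no shared region.

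Of 16 genes of glucocorticoid metabolism and response, 12 had a shared region, with the same 32.4% as background for this list and those that follow. The strongest were at Pdk4, a pyruvate dehydrogenase kinase gene (28.1 and 22.3 in WT replicates 3 and 4, with a peak of 7.67 in edKO replicate 4), Zbtb16 (13.8 and 13.7), Cdkn1a (16.8 and 8.46, in a region nearest to Rab44) and the phosphatase gene Dusp1 (14.4 and 9.24). Errfi1, Hsd11b1 and the metallothionein genes Mt1 and Mt2 had none. The mineralocorticoid list had 6 of 11 genes with a region and no edKO peak. The highest were Scnn1g (11.8 and 6.19, nearest to Usp31), Nedd4l (8.61 and 8.17) and Scnn1a (8.52 and 5.55, nearest to Tnfrsf1a). The kinase gene Sgk1 followed (7.75 and 5.03). Besides Nr3c2, the genes without a region were Cyp11b2, Lcn2, Scnn1b and Slc12a3. On the vitamin D list 3 of 13 genes had a region, namely Calb1, Vdr and the sodium-calcium exchanger gene Slc8a1 (7.16 and 5.55). The Calb1 region (14.4 and 6.13) lay 38.7 kb away and was nearest to Decr1. Of the other steroid receptor genes Esr2 had a weak region (5.57 and 3.29), while Esr1 and Pgr had none.

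The labelled tissue was looked up in the same way. All 8 cardiomyocyte marker genes had a shared WT region within 50 kb, beside 32.4% of all genes, as did 2 of 4 endothelial, 1 of 4 fibroblast and 1 of 4 blood and macrophage markers. In edKO replicate 4, 4 of the 8 cardiomyocyte markers had a peak, on 3 peaks since Myh6 and Myh7 share 1, and none of the endothelial, fibroblast or blood and macrophage markers did, beside 1.52% of all genes. Peak lists hold no transcript level, so neither the cells in each heart nor the deletion itself was measured.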

How the data were processed

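RXR ChIP-seq of 2 edKO and 2 WT newborn hearts was analysed from 1 peak list per heart. Per the submitters' processing notes, the authors used cutadapt, BWA, SAMtools and MACS3 on mm10 (GRCm38); the sources used here give no version or setting. The deposited fold enrichment is the ratio of summit fragments to local background, and the deposited −log10 p and −log10 q rate each peak within its own list. The deposited score is derived from the −log10 q and was not used. The deposited positions are in bp and are printed 1-based. Each list came from an immunoprecipitate and its input, and replicates were not pooled, per the labels.

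Peaks of WT replicate 4 were joined to the strongest overlapping peak of WT replicate 3 (at least 1 bp), with 1 peak per heart in a region and the summit of WT replicate 3. Gene spans came from a RefSeq table of GRCm38.p6 (21887 protein-coding genes outside the mitochondrial genome), which gives no exons, so exon or intron is not stated. Fragments at a summit were recovered as the whole number that yields both the deposited fold (1 added to count and background) and the Poisson −log10 p. For this, counts were multiplied by a scale recovered from the lists, 0.992 in edKO replicate 3, 0.967 in WT replicate 4 and 1 in the other hearts; printed fragments are before scaling. All peaks of the 4 lists were fitted within a relative error of 0.0005, and the method was tested on simulated data. Whether duplicates were removed is not given, so intervals cover counting error only. An exact permutation test compared the number of peaks, with the hearts unpaired because the labels tie a shared number to no litter or day. The members, lists and tests were chosen with earlier results of these data known. Named were the 7 genes with their strongest shared region, every edKO peak in their windows, and the up to 4 strongest genes of each list. The list genes Dio1, Dio3, Slc8a1, Ucp3 and Atp2a2 and the edKO folds of Klf9 and Myh6 were chosen after their values were seen. So were the mean WT folds of the cell type markers. Analyses used Python 3.11.15, NumPy 2.4.6, pandas 2.3.3 and SciPy 1.17.1.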

Additional observations from a re-analysis of the deposited data

How the results depend on the processing

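The difference in peaks per heart, edKO minus WT, was -27.0, and it stayed negative with 0 peaks in both edKO hearts at 10 kb (-14.5), at 100 kb (-36.0), at −log10 q of at least 5 (-23.0), at −log10 p of at least 10 (-17.5), with the nearest gene alone (-10.5) and without the Thra window (-15.5, chosen after seeing the data). Leaving out 1 heart gave -42.0 to -12.0. With the replicate number as a block it was -27.0, with an exact sign-flip p = 0.5, the smallest that 2 pairs allow. Such small designs cannot show stability.

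The count of 12 shared regions fell to 6 at 10 kb, to 4 with the nearest gene alone and to 7 without the Thra window. With −log10 q of at least 5 the count was 10, and with −log10 p of at least 10 it was 9. It was 12 without WT replicate 3 and 42 without WT replicate 4, where all peaks of the other heart count. Genes with a shared region numbered 3 of 7 at 10 kb and 4 of 7 at either stricter threshold, against 5. At 10 kb the thyroid transport and receptor list fell to 5 genes, the vitamin D list to 1 and the mineralocorticoid list to 3. Leaving out a WT heart gave 9 to 16 genes on the thyroid transport and receptor list, 3 to 7 on the vitamin D list and 1 to 2 among other steroid receptors. At either stricter threshold the other steroid receptors fell to 0. An overlap of 50% of the shorter peak changed none of these counts. The mean fold at Thrb was 19.8, and 10.9 without WT replicate 3. The Vdr region rests on 15 fragments in WT replicate 4, which limits the precision of its fold. That WT replicate 4 peak had a −log10 p of 7.58 and a −log10 q of 4.13, so Vdr had no shared region at either stricter threshold.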

Other observations

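Some peaks around these genes lay at listed starts of their neighbours, in WT replicate 3 alone. In the Vdr window a peak with a fold of 3.83 had its summit 37 bp past a listed start of Hdac7 and 235 bp upstream of another. In the Thra window a peak with a fold of 4.51 lay 526 bp upstream of a listed start of Msl1. The Nr1d1 promoter region, present in both WT hearts, also lay 315 bp past the listed start of the long non-coding RNA gene Gm31862, measured at the summit of WT replicate 3. Peaks in the Thra window nearest to Med24, a Mediator subunit gene, and to Casc3 numbered 2 and 1, and also came from WT replicate 3.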
